A study of Mus musculus with 4 samples.

Results

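Plasma cells are the antibody-secreting end stage of the B lymphocyte lineage, and the 10 genes described here mark that stage without being immunoglobulin genes themselves. They are a list of gene names drawn up with earlier results of these data known, so the choice was not independent of the values. It holds 4 transcriptional regulators (Irf4, Prdm1, Xbp1 and Pou2af1), 3 surface receptors (Tnfrsf17, Slamf7 and Sdc1) and 3 genes of the secretory pathway (Mzb1, Txndc5 and Derl3). Each matched 1 probe set, so they are 10 of the 23185 named genes on the array. The cells profiled were mouse long-term haematopoietic stem cells (HSCs) from bone marrow, sorted by surface markers. The series exposed donor Lin- ckit+ Sca+ marrow cells to 0, 0.02, 0.1 or 0.5 Gy of γ-irradiation and placed them in lethally irradiated hosts, and 6 months later Lin- ckit+ Sca+ Flk2- CD48-CD150+ cells were isolated from those hosts. Each dose is 1 array, and the hosts of the 0 Gy array received unirradiated cells. The strain, age and number of the hosts, the antibodies behind Lin- and any marker that separates donor from surviving host cells are not stated in the labels.

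When an activated B cell becomes a plasma cell, IRF4 and BLIMP-1 (encoded by Prdm1) shut down the B cell program, and XBP1 enlarges the endoplasmic reticulum so that antibody can be folded and exported in bulk. Long-lived plasma cells reside in the bone marrow, where signals through BCMA (encoded by Tnfrsf17) keep them alive. Syndecan-1 (Sdc1, also called CD138) is the surface protein by which they are usually recognised.

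All 10 plasma cell genes had their highest value on the 0.02 Gy array. Over all named genes, 17.7% were highest on that array. On the 0.02 Gy array 7 of the 10, Irf4, Prdm1, Pou2af1, Tnfrsf17, Slamf7, Mzb1 and Derl3, stood at least 1.5-fold above each of the other 3 arrays, against 2.2% of all named genes. At 0.1 and 0.5 Gy, Mzb1, Pou2af1 and Txndc5 were also at least 1.5-fold lower than at 0 Gy, against 4.94% and 5.39% of all named genes. The other 7 reached 1.5-fold in neither direction at these doses, and nor did most named genes. The values are the authors' log2 intensities, on which 1 unit is a factor of 2. With 1 array a dose there is no spread between replicates, no difference between doses was tested, and a gene's order of levels over the doses cannot be judged against error. In RNA from a sorted population, a change in the number of cells of a type and a change in RNA per cell cannot be told apart.

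**Figure D1:**
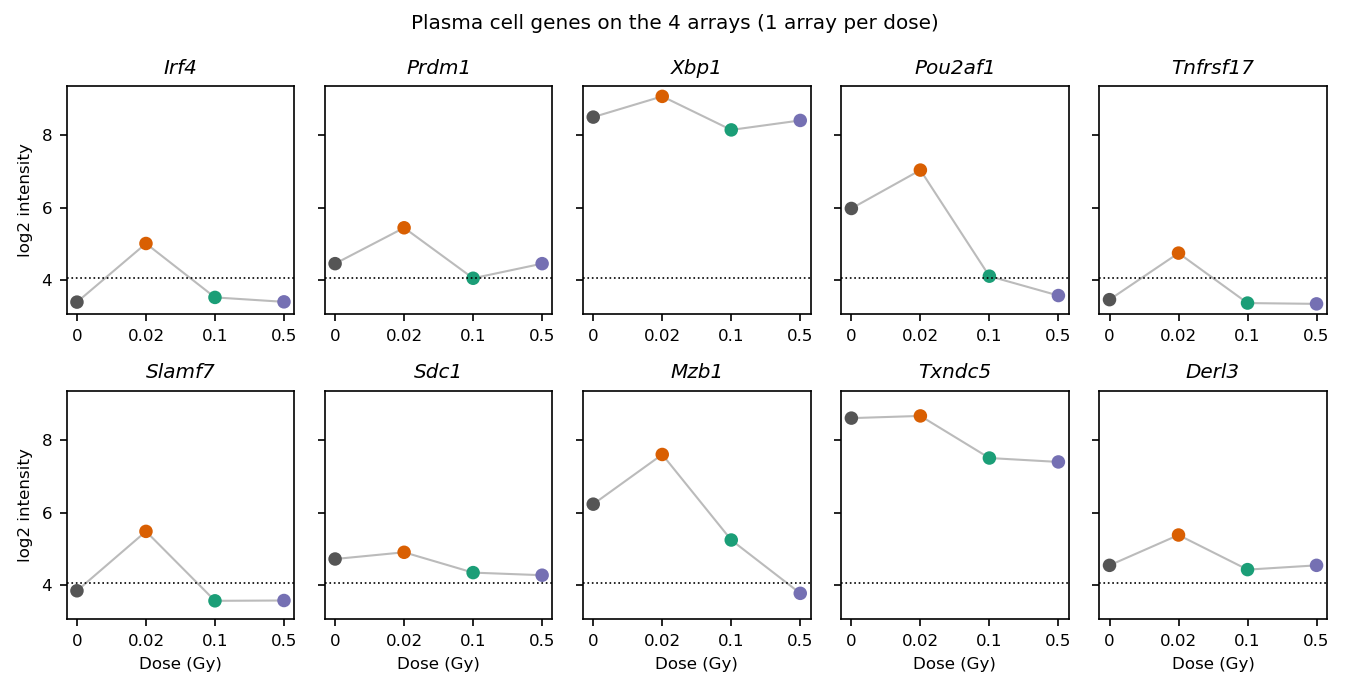
Deposited log2 intensity (vertical axis) of each of the 10 plasma cell genes on the 4 arrays, placed at equal steps in order of dose in Gy (horizontal axis, not to scale). Each point is 1 array, grey lines join the points of a gene, and the dotted line is the filter level of 4.06. In every panel the 0.02 Gy point is the highest.

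A filter on low values was set at 4.06, the median of the gene means, and 8 of the 10 genes passed it. Irf4 and Tnfrsf17 did not pass, and both exceeded 4.06 on the 0.02 Gy array alone. Slamf7 passed with a mean of 4.12 and was likewise above this level at 0.02 Gy alone. The size of a difference that starts from so low a value is uncertain. All 10 genes were therefore kept in each count below, whatever their level, and set beside all 23185 named genes. Equal values on different arrays were common in the deposited table: 57.4% of named genes had the same value on at least 2 arrays, among them Prdm1 and Derl3, each equal at 0 and 0.5 Gy.

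All 10 genes had their highest value on 1 array, although Txndc5 stood only 0.06 and Sdc1 only 0.18 above 0 Gy there. Their promoters were searched for 4 short motifs linked to the plasma cell program. RefSeq promoter windows on assembly GRCm38.p6, from 250 bases before to 50 bases after each annotated start, were found for 9 of the 10 genes, all but Mzb1. The letters CCACG, part of the endoplasmic reticulum stress element read by ATF6 and XBP1, occurred on either strand in 6 of these 9 genes and in 35.5% of all 27025 genes with a window. The core of the unfolded protein response element, TGACGTG, occurred in 2 of 9 and in 2.22% of all genes, and the composite ETS and IRF motif GGAANNGAA in 1 of 9 and in 9.42%. The octamer ATTTGCAT, through which the Pou2af1 product acts together with OCT proteins, occurred in 0 of 9 and in 1.97% of all genes. In Pou2af1 and Txndc5 the core TGACGTG was followed by G, so that it overlaps a reverse CCACG match. The 4 stretches below are those with the unfolded protein response core, or with at least 2 CCACG matches within 60 bases in a gene that stood apart at 0.02 Gy. They lie before the start, and capitals mark the matched letters.

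Pou2af1, chr9:51213609-51213656, plus strand, -81 to -34 from the start: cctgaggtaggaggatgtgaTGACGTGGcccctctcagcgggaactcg
Txndc5, chr13:38528025-38528098, minus strand, -184 to -111 from 1 of its 3 annotated starts: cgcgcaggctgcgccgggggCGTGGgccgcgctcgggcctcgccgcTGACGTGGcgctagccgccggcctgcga
Derl3, chr10:75893180-75893266, plus strand, -218 to -132: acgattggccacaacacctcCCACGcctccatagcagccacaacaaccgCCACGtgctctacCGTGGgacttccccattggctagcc
Prdm1, chr10:44458802-44458878, minus strand, -130 to -54: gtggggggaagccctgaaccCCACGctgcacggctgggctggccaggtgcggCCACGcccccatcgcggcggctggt

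The Derl3 stretch holds 3 CCACG matches, and the Prdm1 stretch holds 2. A match describes these letters only. Binding was not measured, and the start that each RNA used is not known from the array.

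Among the transcriptional regulators, Irf4 (Entrez gene 16364), which commits B cells to the plasma cell fate, had log2 values of 3.40, 5.02, 3.53 and 3.41 in rising order of dose (0, 0.02, 0.1 and 0.5 Gy). The 0.02 Gy array stood alone, 3.06-fold above 0 Gy, and the other 3 arrays lay within 0.13 of each other. Prdm1 (12142), which encodes the repressor BLIMP-1, had 4.46, 5.45, 4.06 and 4.46. It was 1.98-fold higher at 0.02 Gy than at 0 Gy, and its 0.1 Gy value was the lowest, 0.40 below 0 Gy. Both factors also act outside the B lineage, in T cells and myeloid cells among others.

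Xbp1 (22433), the transcription factor of the unfolded protein response that drives secretory capacity, had 8.49, 9.06, 8.14 and 8.40 at 0, 0.02, 0.1 and 0.5 Gy. Many cell types use it, and it was above the filter level on every array. Its difference of 0.57 at 0.02 Gy, or 1.48-fold, lay just short of 1.5-fold. The array does not separate the spliced from the unspliced form of its RNA. Pou2af1 (18985), the B lineage coactivator of octamer-binding factors, had 5.98, 7.03, 4.12 and 3.58. Here the 0.1 and 0.5 Gy values were 1.45-fold apart, short of 1.5-fold, and without replicates the gaps between arrays cannot be set against error. The 0.02 Gy value was 2.08-fold above 0 Gy, and the values at 0.1 and 0.5 Gy were 3.63-fold and 5.26-fold below it. At 0.5 Gy the gene was under the filter level.

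Among the surface receptors, Tnfrsf17 (21935), which encodes the survival receptor BCMA, had 3.47 without irradiation, 4.75 at 0.02 Gy and then 3.38 and 3.36. Only the 0.02 Gy array was high, 2.43-fold above 0 Gy, and the other 3 lay within 0.12 of each other. Slamf7 (75345), a signalling receptor of plasma cells that natural killer cells and other leukocytes carry too, had 3.85, 5.48, 3.57 and 3.58. Its difference of 1.63 at 0.02 Gy was the widest of the 10 genes in that comparison, and 0.738% of all named genes had one as large or larger. Sdc1 (20969), the syndecan by which plasma cells are usually sorted, had 4.72, 4.91, 4.35 and 4.28, the narrowest range of the 10 genes. It was 0.18 above 0 Gy at 0.02 Gy, a difference that 17.7% of named genes equalled or exceeded.

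Among the secretory genes, Mzb1 (69816), an endoplasmic reticulum protein that helps immunoglobulin to assemble, had 6.23 without irradiation, 7.60 at 0.02 Gy and then 5.24 and 3.78. The range of 3.82 was the widest of the 10 genes, and every pair of arrays differed by at least 1.5-fold. Mzb1 was 2.58-fold higher at 0.02 Gy than at 0 Gy, 1.98-fold lower at 0.1 Gy and 5.47-fold lower at 0.5 Gy, where it was under the filter level. At 0.5 Gy, 0.302% of named genes were as far below 0 Gy or farther.

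Txndc5 (105245), a protein disulphide isomerase that helps secreted proteins to fold, had 8.60, 8.66, 7.50 and 7.39 at 0, 0.02, 0.1 and 0.5 Gy. Its arrays fell into 2 pairs. The 0 and 0.02 Gy arrays differed by 0.06, and the 0.1 and 0.5 Gy arrays were 2.14-fold and 2.30-fold below 0 Gy. Derl3 (70377), a derlin that takes part in the removal of misfolded proteins from the endoplasmic reticulum, had 4.55, 5.38, 4.43 and 4.55. As for Irf4 and Tnfrsf17, the 0.02 Gy array alone was high, 1.78-fold above 0 Gy. The other 3 lay within 0.12.

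The first comparison the design implies is each dose against 0 Gy. At 0.02 Gy the 10 genes had a median log2 difference of 1.02, with all 10 above 0 Gy, while the median of all named genes was 0.00. Of the 10, 7 were at least 1.5-fold higher, against 4.59% of all named genes, and 0 were lower by that much, against 4.27%. The 7 genes were the regulators Irf4, Prdm1 and Pou2af1, the receptors Tnfrsf17 and Slamf7, and the secretory genes Mzb1 and Derl3.

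At 0.1 Gy the median was -0.36, with 9 genes below 0 Gy and Irf4 0.13 above it. At least 1.5-fold lower were 3 of the 10, Pou2af1 at -1.86, Txndc5 at -1.10 and Mzb1 at -0.99, against 4.94% of named genes. Higher by that much were 0 of the 10, against 3.99%. At 0.5 Gy the median was -0.19, with 7 genes below 0 Gy, Prdm1 and Derl3 equal to it and Irf4 0.01 above it. The same 3 genes were at least 1.5-fold lower, Mzb1 at -2.45, Pou2af1 at -2.39 and Txndc5 2.30-fold lower, against 5.39% of named genes, and 0 were higher, against 4.36%. The 3 comparisons share the single 0 Gy array, so a value that is off on that array moves all of them together.

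The second comparison, between irradiated arrays, does not use the 0 Gy array. From 0.02 to 0.1 Gy, 9 of the 10 genes were at least 1.5-fold lower, against 5.5% of named genes, and 0 were higher, against 4.12%. The median difference was -1.38. The exception was Sdc1 at -0.56, just inside that limit. From 0.02 to 0.5 Gy all 10 were at least 1.5-fold lower, against 5.74%, and 0 higher, against 4.17%, with a median of -1.33. Mzb1 was 14.1-fold and Pou2af1 10.9-fold lower at 0.5 than at 0.02 Gy, and Xbp1 and Sdc1 were 1.58-fold and 1.55-fold lower. Between 0.1 and 0.5 Gy the median was -0.05, with Mzb1 at -1.47 as the 1 gene lower by 1.5-fold, against 4.41%, and 0 higher, against 4.11%. Pou2af1 at -0.53 and Prdm1 at 0.40 were the next in size in that pair. These 2 comparisons with 0.02 Gy share the 0.02 Gy array.

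**Figure D2:**
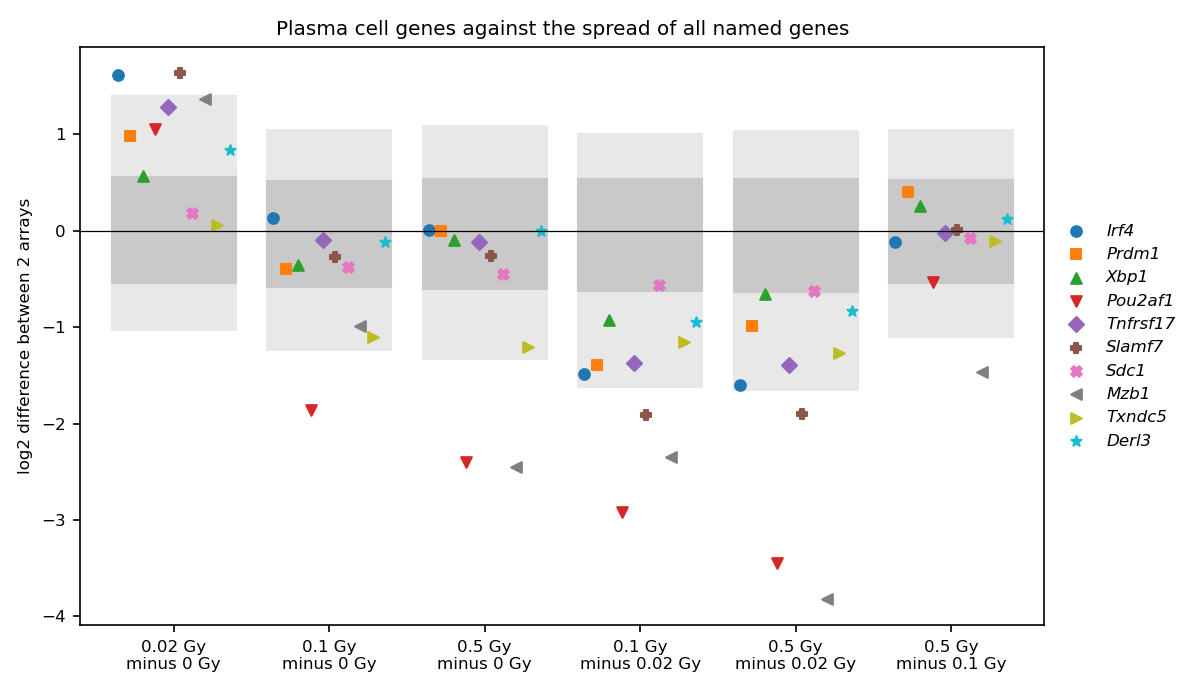
Log2 difference between 2 arrays (vertical axis) for each of the 10 plasma cell genes (symbols) in the 6 pairs of arrays (horizontal axis). Dark and light grey boxes span percentiles 5 to 95 and 1 to 99 of all 23185 named genes. The symbols lie at or above 0 in the first pair and below 0 in both pairs that subtract the 0.02 Gy array, and Mzb1 and Pou2af1 leave the boxes downward at 0.5 Gy.

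The 10 genes did not share a single shape over the doses. In 7 of them, Irf4, Tnfrsf17, Derl3, Slamf7, Xbp1, Prdm1 and Sdc1, the 3 arrays other than 0.02 Gy lay within 0.5 log2 units of each other. In Pou2af1 and Mzb1 those 3 arrays spanned 2.39 and 2.45, and in Txndc5 the 0.1 Gy array was 2.14-fold below the 0 Gy array. Slamf7, Irf4 and Tnfrsf17 were under the filter level on each of those 3 arrays, so their flatness there, and which of the 3 is lowest, cannot be read as a level. The share of all named genes with these 3 arrays so close was not computed. Against 0 Gy, percentiles 5 to 95 of all named genes ran from -0.58 to 0.51 at 0.1 Gy. At 0.5 Gy they ran from -0.61 to 0.54, so small differences between these arrays were common.

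The immunoglobulin genes, the main product of plasma cells, were compared in the same way. The 9 constant region and J chain genes measured had median differences from 0 Gy of 0.57, -0.99 and -2.43 in rising order of dose. Ighg1, the heavy chain of the IgG1 class, had 11.04, 12.55, 3.06 and 4.12 at 0, 0.02, 0.1 and 0.5 Gy, and Ighm, the heavy chain of IgM, had 10.93, 11.20, 11.35 and 7.21. The J chain gene Jchain, which links IgM and IgA into multimers and was singled out after its values were seen, had 9.75, 10.69, 8.46 and 7.32, with its arrays in the same order as those of Mzb1 and Pou2af1. Ighg3 and Ighe stayed under the filter level on all arrays. The other IgG genes named, Ighg2b and Ighg2c, had 11.07, 12.12, 3.73 and 4.20, and 11.36, 12.33, 4.21 and 3.75. Igha, the heavy chain of IgA, and Igkc, the kappa light chain, stayed far above the filter level on every array. They had 11.90, 12.47, 10.91 and 10.55, and 12.66, 12.83, 12.29 and 11.70.

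Other genes of the plasma cell program, the 17 measured of 18 listed, had a median difference of 0.15 at 0.02 Gy. There 4 of them exceeded 0 Gy by 1.5-fold or more, against 4.59% of all named genes. Lower by as much were 0, against 4.27%. The 4 higher genes were Prg2, which encodes the major basic protein of eosinophils, Tent5c, a poly(A) polymerase, Ly6k, and the pseudokinase gene Trib1. Prg2 had 6.83, 8.58, 5.36 and 3.73 over the 4 doses, in the order seen for Mzb1 and Pou2af1. Tent5c had 5.87, 7.21, 4.81 and 5.87, in the order seen for Prdm1 and Derl3. Ly6k had 4.18, 5.50, 4.78 and 3.95, and Trib1 had 6.40, 7.45, 6.15 and 6.28. Downward, 3 of the 17 reached 1.5-fold at 0.1 Gy, against 4.94% of named genes, and 1 at 0.5 Gy, against 5.39%. Upward 1 did so at each of these doses, against 3.99% and 4.36%. A count of 1 of 17 is near these shares.

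The wider secretory machinery includes genes that Xbp1 acts on. Of 39 measured genes for translocation, folding and the unfolded protein response, 2 reached 1.5-fold upward at 0.02 Gy, a share near the 4.59% of all named genes. Downward 0 did so, against 4.27%, and the median difference was 0.00 at each dose. The 2 were Ddit3, a stress-induced transcription factor, with 6.43, 7.40, 7.81 and 7.57, and Eif2ak3, the sensor kinase PERK, with 4.40, 5.01, 4.39 and 4.51. The derlin genes Derl1 and Derl2, which are expressed in most cells, were at -0.13 and -0.31 at 0.02 Gy, against 0.83 for Derl3.

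Ligands and receptors of plasma cell survival had a median difference of 0.00 at each dose over 14 genes. At 0.02 Gy, 3 of them reached 1.5-fold upward, Tnfrsf13b, Tnfsf13 and Cd28, against 4.59% of all named genes. Downward 1 did so, the chemokine gene Cxcl12 at -0.82, against 4.27%. Tnfrsf13b, which encodes TACI and shares its ligands with BCMA, had 4.57, 5.54, 4.21 and 4.58, so that it too was high at 0.02 Gy alone. Tnfsf13, which encodes the BCMA ligand APRIL, had 3.48, 4.21, 3.08 and 4.86, with its highest value at 0.5 Gy. The costimulatory receptor gene Cd28 had 4.42, 5.94, 5.70 and 4.35, and the interleukin 6 receptor subunit gene Il6st 7.80, 7.66, 6.43 and 7.20.

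Of 10 measured factors that maintain the mature B cell state and that plasma cells switch off, 1 reached 1.5-fold upward at 0.02 Gy and 0 downward. Over all named genes the shares were 4.59% and 4.27%. The median difference of the 10 factors was -0.02. The 1 higher factor was Bcl6, the germinal centre repressor that opposes Prdm1, with 3.85, 6.41, 4.69 and 4.69. It was therefore highest on the array on which Prdm1 was highest. The 0 Gy value of Bcl6 lay under the filter level, so the size of its difference is uncertain. Bach2, another repressor of Prdm1, had 3.68, 4.11, 3.34 and 3.61, and Pax5, the factor of B cell identity, had 4.26 on all 4 arrays. Ciita, the activator of MHC class II genes, had 5.26, 4.69, 5.07 and 5.07, and Spi1, which encodes PU.1, had 8.71, 8.88, 8.76 and 9.06.

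Markers of other cells in or near the gate were read beside these results, and their part in the values of the 10 genes was not tested. Of 11 measured B cell markers, 4 reached 1.5-fold upward at 0.02 Gy and 0 downward, against 4.59% and 4.27% of all named genes. The median difference of the list was 0.06. Its mean log2 value was 4.25, 4.89, 4.34 and 4.25 over the doses, and the higher mean at 0.02 Gy came mainly from Cd79a, Vpreb3 and Cd79b. The 4 were the B cell receptor subunit genes Cd79a, with 3.80, 6.61, 4.40 and 3.30, and Cd79b, with 7.58, 8.62, 7.01 and 6.79, together with Vpreb3, with 2.92, 5.49, 3.16 and 3.94, and Cd72, between 6.50 at 0 Gy and 7.13 at 0.02 Gy. Cd79a and Vpreb3 were under the filter level at 0 Gy, so the size of their differences is uncertain. The defining B cell marker Ms4a1, which encodes CD20, had values between 2.23 and 2.32 on all arrays, and Cd22 between 2.72 and 2.91.

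Over all named genes, 4.59% reached 1.5-fold upward and 4.27% downward at 0.02 Gy. Of 15 T and NK cell markers, 0 did so upward and 1, Cd3d at -0.94, downward. On every array 11 were under the filter level, Cd3e between 2.27 and 2.32. Nkg7, a cytotoxic granule gene, was well above that level with 8.90, 8.38, 9.36 and 9.92, lowest on the array on which the plasma cell genes were highest. Klrb1c lay between 5.55 and 5.71, Cd247 between 4.68 and 5.02, and Tbx21 had 4.24 on all arrays. Of 9 plasmacytoid dendritic cell markers, 1 was higher, Ly6d, which B cell precursors also express, with 6.38, 8.29, 4.37 and 6.03. Bst2 lay between 8.47 and 8.65, Tcf4 between 7.55 and 7.95, and Cox6a2 between 4.21 and 4.83. Siglech, the defining gene of that list, had values between 3.32 and 3.76. Of 17 monocyte, macrophage and dendritic cell markers, 2 were higher at 0.02 Gy, Cd68 with 6.10, 7.78, 4.02 and 6.18 and Ly6c2 with 6.28, 8.18, 6.83 and 4.72, while Csf1r had 3.11 on every array. Cd74, the MHC class II invariant chain gene, had 9.94, 9.68, 7.87 and 9.23. H2-Aa, a class II chain gene, had 9.35, 8.93, 8.14 and 9.25. B cells also express both genes, and neither differed by 1.5-fold between 0 and 0.02 Gy.

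The labelled cell type was read from its own markers. All 12 measured long-term HSC genes were above the filter level on each array. At 0.02 Gy their median difference was 0.40, with 9 above 0 Gy and 3 below it, and 5 of 12 were at least 1.5-fold higher, against 4.59% of all named genes. The 5 were Procr at 1.38, Slamf1, which encodes the sorted CD150, at 0.98, Fgd5 at 0.84, Hoxb5 at 0.71 and Pdzk1ip1 at 0.66. Of the 12, 8 were highest at 0.02 Gy, against 17.7% of all named genes, and 4 stood 1.5-fold above each other array, against 2.2%. Mycn, a transcription factor gene, was at -0.20 and had 7.83, 7.62, 6.49 and 6.49. At 0.1 Gy 3 of the 12 were at least 1.5-fold lower and 0 higher, against 4.94% and 3.99% of all named genes. At 0.5 Gy 1 was lower and 1 higher by that much, against 5.39% and 4.36%.

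**Figure D3:**
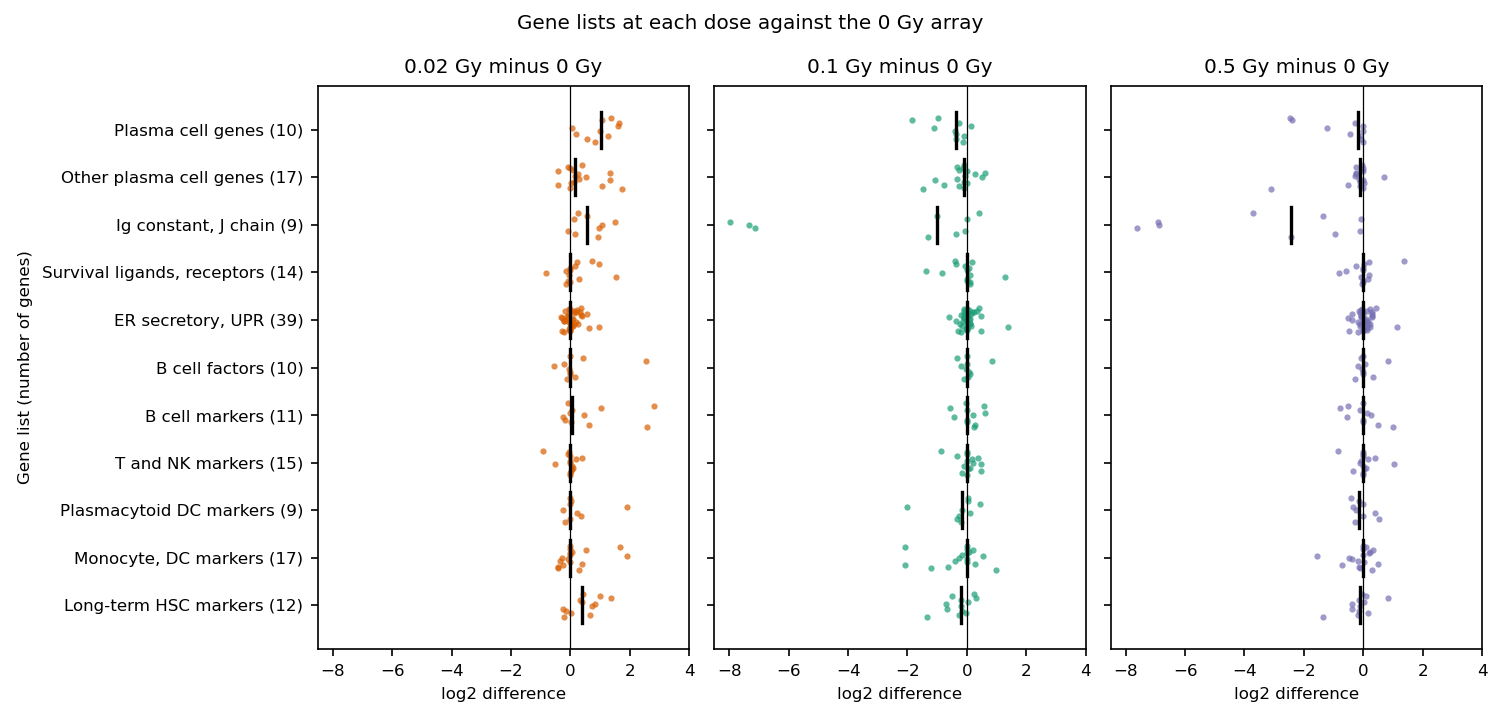
Log2 difference from the 0 Gy array (horizontal axis) at 0.02, 0.1 and 0.5 Gy (panels from left to right) for the genes of 11 lists (rows, with the number of measured genes). Each dot is a gene and each black bar the list median. The plasma cell genes have the highest median at 0.02 Gy (1.02), and the immunoglobulin genes spread down to -7.97 at 0.1 Gy.

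Genes with a pattern most like the 10 were sought by Pearson correlation with the mean centred profile of the 10, over the 4 arrays, among 1083 genes that passed the filter and spanned at least 1 log2 unit. With 4 points high values are easy to reach, and 53 of these genes had an r of 0.95 or more. Of the 10 plasma cell genes, 3 did so themselves, since the profile averages several shapes. The closest gene was the B cell receptor subunit gene Cd79b, at r = 0.9997. The others were Csf2rb, Cish, Sdc3, Il4ra, Ctss, Mllt3, Cradd, Zbtb42 and Fscn1, at r from 0.989 to 0.999. Ctss, which encodes the lysosomal protease cathepsin S, had 5.95, 7.22, 5.55 and 5.40, and Il4ra, the interleukin 4 receptor gene, had 6.50, 7.25, 5.98 and 6.03. The correlations describe these 4 arrays, which share their processing, and carry no test.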

How the data were processed

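Biotin-labelled cDNA from total RNA was hybridised to Affymetrix arrays, 1 for each of 4 doses, per the labels. The authors deposited 1 log2 intensity per Entrez gene and array, and the base 2 is inferred from the range of 1.22 to 13.0. Partek is named in the submitters' processing notes, without role or version. Background correction, normalization and genome build: not given in the sources used here. Array medians were 4.02, 4.07, 4.02 and 4.01 at 0, 0.02, 0.1 and 0.5 Gy. Precision is limited by the number of arrays.

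Of 25206 probe sets, 23185 had 1 gene symbol in the platform table and 2021 had none or more than 1. Symbols were updated through Entrez identifiers. Values were used as deposited. Differences between arrays, counts at 1.5-fold and medians were computed in Python 3.11.15 (pandas 2.3.3), and the counting was tested on simulated data. No test between doses was run. Alternatives were quantile normalization, median centring and cyclic loess (limma 3.58.1, R 4.3.3), the filter on low values, folds of 2 and 3, and a control averaged over the remaining 3 arrays. Those for pairs of irradiated arrays and for genes highest at 0.02 Gy were added after seeing the data.

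The 10 genes and all lists were chosen with earlier results of these data known. Of each list, up to 4 genes with the widest range among those that reached the filter level on any array are named. Jchain, Igha, Igkc, Ighg3, Ighe, Pax5, Ms4a1, Cd22, Cd3e, Siglech, Csf1r, Prtn3, Cd3d, Hoxb5 and Pdzk1ip1 fall outside this rule. They were chosen after their values were seen. The 10 genes nearest in pattern exclude immunoglobulin, T cell receptor, clone-named, predicted, chemosensory receptor and small RNA genes. RefSeq promoters were searched on both strands.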

Additional observations from a re-analysis of the deposited data

How the results depend on the processing

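Of 72 alternative values of the medians and counts over the 10 genes, 64 moved by at most 0.1 log2 units or stayed within 1.5 times the count. Quantile normalization, median centring and cyclic loess were among them throughout, also for the 10 genes highest at 0.02 Gy, and moved no single difference of the 10 from 0 Gy by more than 0.08. Under them the differences of Prdm1 and Derl3 at 0.5 Gy, 0 as deposited, took a sign. A reversal of sign was called only for medians of at least 1.5-fold, and 0 of these reversed. Counts and smaller medians could not be called reversed. With a control averaged over the remaining 3 arrays, the medians were 1.23 at 0.02 Gy, -0.57 at 0.1 Gy and -0.54 at 0.5 Gy. Against it 5 genes were at least 1.5-fold lower at 0.1 Gy. This control includes the high 0.02 Gy array at the upper doses. Over the 8 genes that passed the filter, the medians were 0.91 at 0.02 Gy and -0.36 at 0.5 Gy. Slamf7 counts among these 8, although only its 0.02 Gy value of 5.48 exceeded 4.06. Without that value Slamf7 would not have passed, and its difference at 0.02 Gy was 1.63. The median of 0.91 is therefore not free of differences that start from a low value. At 3-fold, 2 genes were higher at 0.02 Gy and 1 lower at 0.1 Gy. The 2 higher genes, Slamf7 and Irf4, were both under the filter level at 0 Gy. The shares of all named genes at 3-fold and with the averaged control were not computed, so these counts have no background beside them. Among the 11593 genes that passed the filter, 6.44% were at least 1.5-fold higher at 0.02 Gy than at 0 Gy. No paired analysis was possible because each dose has 1 array.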

Other observations

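Markers of the neutrophil and erythroid lineages were read in the same way. Among 10 genes of neutrophils and their progenitors, 3 reached 1.5-fold upward at 0.02 Gy and 1 downward, with a median difference of 0.33. At 0.1 Gy 6 did so upward and 0 downward, with a median of 2.20, and at 0.5 Gy 5 and 0, with a median of 0.39. Of all named genes, 4.59%, 3.99% and 4.36% were that much higher at 0.02, 0.1 and 0.5 Gy. Lower by as much were 4.27%, 4.94% and 5.39%. These shares also apply to the erythroid, endothelial and stromal counts below. Mpo, myeloperoxidase, had 4.78, 6.44, 8.75 and 7.07 at 0, 0.02, 0.1 and 0.5 Gy, and S100a9 had 5.05, 6.26, 7.89 and 4.79. Both were above 0 Gy at 0.02 Gy, as were the plasma cell genes, and highest at 0.1 Gy. S100a8 had 3.89, 2.81, 6.54 and 4.88, and Elane, neutrophil elastase, 3.54, 4.09, 6.09 and 6.28. Prtn3, chosen after its values were seen, had 7.60, 8.81, 8.04 and 8.21, with its highest value at 0.02 Gy.

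Of 8 measured erythroid genes, 0 reached 1.5-fold upward and 1 downward at 0.02 Gy, with a median of -0.38, against 5 and 0 at 0.5 Gy, with a median of 0.65. Car1, a carbonic anhydrase of red cells, had 8.42, 7.59, 9.77 and 10.34, and the erythroid factor genes Gata1 and Klf1 had 7.72, 7.33, 8.10 and 8.84 and 5.46, 4.90, 6.84 and 6.64. Hbb-b1, a beta globin gene, had 8.59, 8.22, 7.51 and 9.25. Of 10 endothelial and stromal genes, 0 reached 1.5-fold upward and 2 downward at 0.02 Gy. These were Sox18, with 6.35, 3.91, 4.38 and 4.38, and Cxcl12, the chemokine that retains plasma cells and HSCs in the marrow, with 5.36, 4.53, 4.53 and 4.54. Pecam1 had 7.67 at 0 Gy and 7.22 on the other 3 arrays, and Kdr had 4.16, 3.72, 3.51 and 3.57.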
